A study of Homo sapiens with 5 samples.

Results

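H/ACA box snoRNAs are small nucleolar RNAs that guide the conversion of uridine to pseudouridine in ribosomal and spliceosomal RNA, and several human miRNA names lie inside them. The 7 names described here are hsa-miR-1248, hsa-miR-1291, hsa-miR-664a-5p, hsa-miR-664a-3p, hsa-miR-664b-5p, hsa-miR-664b-3p and hsa-miR-3651, chosen by name, every arm included, out of 2565 human miRNA rows. They were set beside the 107 rows whose names begin with SNORA, the symbol for H/ACA snoRNAs. MCF10A, an immortalized and non-tumorigenic human mammary epithelial line, was kept detached on poly-HEMA, a coating that prevents adhesion, at a time label of 24 h (2 libraries), or attached on uncoated plastic at a time label of 0 h (3 libraries). Both groups were grown in the same horse serum medium with epidermal growth factor, insulin, cholera toxin and hydrocortisone, and RNA of 18 to 24 nt was size-selected. The design text instead describes 24 h on either surface. If the 0 h label holds, detachment and time in culture cannot be told apart. The labels do not state separate cultures for the replicates, so a p-value measures only the spread between these libraries.

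An H/ACA snoRNA folds into a pair of hairpins, the first followed by the H box and the second by the ACA box near the 3′ end, and it is bound by dyskerin, the pseudouridine synthase, with NHP2, NOP10 and GAR1. Most human H/ACA snoRNAs are released from introns of host genes. Some are cut further into fragments of miRNA size, by Dicer and often without the Drosha step of canonical miRNA biogenesis, and some of these fragments are bound by Argonaute proteins. Reads at such a name can come from a loaded small RNA or from breakdown of the snoRNA, and counts do not separate these sources.

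The mature sequences are shown because the results turn on single arms and on how alike the paralogs are. They are from RefSeq (GRCh38.p14), all 7 names matched, and capitals mark the seed, bases 2 to 8, which pairs with targets.
hsa-miR-1248: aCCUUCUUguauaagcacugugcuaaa
hsa-miR-1291: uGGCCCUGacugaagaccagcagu
hsa-miR-664a-5p: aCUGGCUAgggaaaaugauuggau
hsa-miR-664a-3p: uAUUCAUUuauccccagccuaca
hsa-miR-664b-5p: uGGGCUAAgggagaugauugggua
hsa-miR-664b-3p: uUCAUUUGccucccagccuaca
hsa-miR-3651: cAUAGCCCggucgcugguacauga

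No pair of the 7 had the same seed. The annotated miR-1248 is 27 nt long, longer than the 24 nt upper limit of the size selection, so reads counted there were either shorter than the annotated form or longer than the selected range. The other 6 are 22 to 24 nt long. The paralogs miR-664a-3p and miR-664b-3p differ by 5 single-base edits, and miR-664a-5p and miR-664b-5p by 8.

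The label was checked by searching 2370 human mature sequences in 574 snoRNA and scaRNA genes of GENCODE 29 (GRCh38). All 7 names were found in full inside an H/ACA snoRNA, of 10 names found in all. The other 3 were miR-6516-5p and miR-6516-3p in SCARNA16 and miR-1843 in SCARNA3. These are Cajal body RNAs, a label that does not exclude an H/ACA box, and their box type was not checked here. miR-6516-3p ended 3 bases short of the 3′ end of SCARNA16, the same place as both miR-664 3p arms in their snoRNAs. miR-1843 was not analysed here. The snoRNA sequences follow, as DNA letters on the snoRNA strand, with capitals marking the mature miRNAs.
SNORA81, chr3:186786675-186786852, plus strand, with miR-1248: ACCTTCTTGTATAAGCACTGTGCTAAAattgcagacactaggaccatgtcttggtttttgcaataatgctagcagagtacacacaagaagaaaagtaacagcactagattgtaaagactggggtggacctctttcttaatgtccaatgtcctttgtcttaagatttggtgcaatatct
SNORA2C, chr12:48654382-48654518, minus strand, with miR-1291: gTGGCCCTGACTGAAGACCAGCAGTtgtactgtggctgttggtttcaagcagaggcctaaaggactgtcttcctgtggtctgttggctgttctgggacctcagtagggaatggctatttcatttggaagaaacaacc
SNORA36B, chr1:220200546-220200676, minus strand, with both miR-664a arms: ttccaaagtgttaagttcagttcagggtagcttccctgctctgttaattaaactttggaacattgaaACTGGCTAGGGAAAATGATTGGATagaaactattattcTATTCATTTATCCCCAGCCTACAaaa
SNORA36A, chrX:154768528-154768659, plus strand, with both miR-664b arms: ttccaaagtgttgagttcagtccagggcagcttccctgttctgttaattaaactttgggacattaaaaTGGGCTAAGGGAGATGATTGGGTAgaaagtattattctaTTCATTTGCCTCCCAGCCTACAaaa
SNORA84, chr9:92292461-92292593, minus strand, with miR-3651: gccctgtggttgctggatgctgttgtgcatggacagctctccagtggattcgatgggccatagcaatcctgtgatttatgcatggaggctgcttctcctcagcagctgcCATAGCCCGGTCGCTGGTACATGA

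The 7 names sat at the ends of the snoRNAs or in their 3′ part. miR-1248 took bases 1 to 27 of the 178 nt SNORA81, and miR-1291 bases 2 to 25 of the 137 nt SNORA2C, for which the RefSeq table lists SNORA34 as another symbol. The miR-664a arms took bases 68 to 91 and 106 to 128 of the 131 nt SNORA36B, and the miR-664b arms bases 69 to 92 and 108 to 129 of the 132 nt SNORA36A. Both 3p arms ended 3 bases short of the snoRNA's 3′ end, so that their last letters were the ACA triplet. miR-3651 took the final 24 bases of SNORA84. The letters ACA exactly 3 bases before the 3′ end, searched on the snoRNA strand only, were present in SNORA2C, SNORA36A, SNORA36B and SNORA84, and in 75.4% of 142 SNORA genes, while SNORA81 had ATA there. miR-664b-3p also occurred in full in a further copy, SNORA36C (chr2:69520043-69520174, minus strand), which differs from SNORA36A by 4 edits, so reads of that arm could not be assigned to a locus. Host genes on the same strand were EIF4A2, a translation initiation helicase, for MIR1248, KANSL2, a subunit of a histone acetyltransferase complex, for MIR1291, RAB3GAP2, a regulator of Rab GTPases, for MIR664A, DKC1, which encodes dyskerin, for MIR664B, and IARS, an isoleucyl-tRNA synthetase, for MIR3651. The MIR1291, MIR664A and MIR3651 hairpins overlapped no annotated exon of these genes. MIR1248 overlapped an exon of a retained-intron transcript, and MIR664B an exon of a processed transcript.

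**Figure D1:**
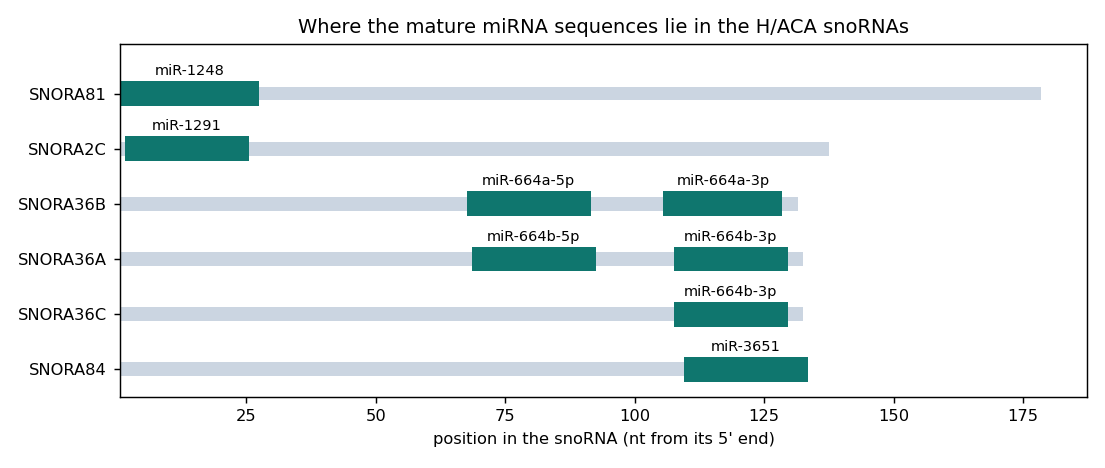
Position of each mature miRNA (dark blocks) in its H/ACA snoRNA (pale bars), in nucleotides from the snoRNA's 5′ end. miR-1248 and miR-1291 lie at the 5′ end, and the other names lie in the 3′ part, with miR-664b-3p present in both SNORA36A and SNORA36C.

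Counts on human miRNAs totalled 10533740 to 15793173 in the detached and 8805009 to 12153778 in the attached libraries, so that 3 counts correspond to at most 0.455 CPM (counts per 1000000 human miRNA counts, TMM-scaled). Attached replicate 2 stood apart, with a Spearman correlation of 0.812 to 0.856 with the others over 697 tested miRNAs, against 0.927 to 0.961 among the other 4. Results are therefore also given without it. Epithelial marker miRNAs (miR-205-5p, miR-200c-3p, miR-141-3p and miR-200b-3p) summed to 84771 and 94145 CPM in detached and 54650 to 98269 CPM in attached libraries. None of the 4 was at 0 in any library. The 3 mesenchymal markers (miR-143-3p, miR-145-5p and miR-199a-5p) summed to 57.1 and 14.2 CPM in detached and 4.44, 15.3 and 3.06 CPM in attached replicates 1, 2 and 3, so that the groups overlapped through attached replicate 2 alone. Of these, miR-145-5p had 17.0 and 6.16 CPM in detached and 0.958, 0.911 and 0.340 CPM in attached libraries, without overlap, and miR-143-3p had 39.7 and 7.38 CPM in detached and 3.31, 14.1 and 2.12 CPM in attached libraries. The 4 blood markers (miR-451a, miR-486-5p, miR-142-3p and miR-223-3p) summed to 20.4 and 16.7 CPM in detached and 7.59 to 15.7 CPM in attached libraries, without overlap. Of them only miR-451a separated the groups, with 6.94 and 7.76 CPM in detached and 4.44, 0.607 and 3.40 CPM in attached libraries. miR-223-3p overlapped, as did miR-486-5p, highest in attached replicate 2 (5.92 CPM), and miR-142-3p, highest in attached replicate 3 (9.60 CPM). Of 697 tested miRNAs, 14.9% were higher in both detached libraries than in all attached ones. miR-223-3p was at 0 in attached replicate 2, and no other marker of these lists was at 0. miR-126-3p, an endothelial marker, had 21.3 and 25.4 CPM in detached and 6.68 to 33.1 CPM in attached libraries, and the liver miR-122-5p was at most 0.680 CPM in any library and at 0 in attached replicate 1. The part of such markers in the results below was not tested.

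All 7 names were scarce. Their summed counts were 174 and 217 in detached and 90, 93 and 92 in attached libraries, or 10.9 and 20.0 per 1000000 named counts in detached against 7.28, 10.4 and 8.78 in attached libraries. These sums are not TMM-scaled. Divided by the TMM factors of the miRNA fit, attached replicate 2 (factor 0.748) lay above detached replicate 1 (0.994), and the groups overlapped. Without miR-664a-5p, the most abundant name, the sums were 4.75 and 13.7 per 1000000 named counts in detached and 2.35, 5.92 and 2.86 in attached libraries, and the groups overlapped. In mean CPM over all libraries miR-664a-5p (5.61) came first, followed by miR-1291 (2.06), miR-1248 (1.97), miR-664a-3p (1.17), miR-664b-5p (0.417), miR-664b-3p (0.173) and miR-3651 (0.0729). This order rests on group averages, since miR-1248 and miR-1291 exchanged places between detached and attached cells. The sequences differ little in length, and levels were not divided by it. In bulk RNA, fewer cells with a transcript and less of it per cell cannot be told apart.

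**Figure D2:**
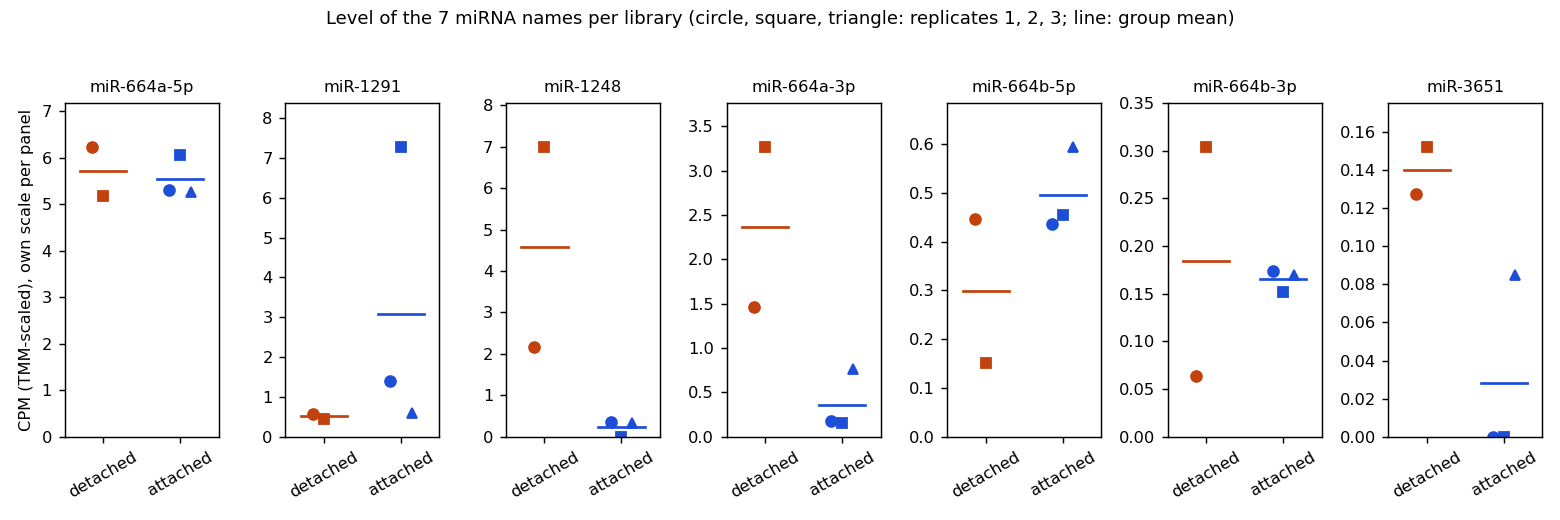
Level of each miRNA name in CPM, with detached libraries left and attached libraries right in each panel, 1 point per library and a line at the group mean. miR-1248 and miR-664a-3p lie higher in both detached libraries than in any attached one, as does miR-3651 at 2 counts or fewer. miR-1291 lies lower in both, while the libraries of the groups overlap for miR-664a-5p and both miR-664b arms.

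Of the 7 names, 4 passed the low-count filter and were tested with edgeR, and 0 of them were called at adjusted p under 0.05 in either direction. The background was 0.0% called higher and 0.0% called lower among 697 human miRNAs. At unadjusted p under 0.05, 2 of the 4 were higher in detached cells (miR-1248 and miR-664a-3p) and 0 lower, beside 4.73% higher and 2.3% lower of all 697. The number higher was 1 without detached replicate 2, and the number lower was 1 with DESeq2, without the low-count filter, with the replicate block and without attached replicate 3. The shares of all miRNAs at this threshold in these settings are not given here. Both detached libraries lay above all attached ones for 2 of the 4 and below them for 1, against 14.9% and 14.2% of the 697. The median log2 fold change of the 4, detached over attached, was 1.32, and that of all 697 was -0.04, with 3 of 4 and 340 of 697 above 0. Names passed the filter through the group in which they were high: miR-1248 and miR-664a-3p through detached counts, and miR-1291 through attached counts. These counts and the median therefore describe the 4 names and not the family. Set beside the shares of all 697, they are no support for a difference.

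miR-1248, from the 5′ end of SNORA81, had the largest fold change of the 4 tested names. It had 34 and 92 counts in detached libraries, against 4, 0 and 4 in attached libraries, and passed the low-count filter through its detached counts. In CPM these were 2.17 and 7.0 in detached and 0.348, 0 and 0.340 in attached libraries. Both detached libraries were far above every attached one, and the detached replicates differed widely from each other. The mean was 4.58 ± 3.42 CPM in detached (SD, n = 2) and 0.229 ± 0.199 CPM in attached cells (SD, n = 3). Over summed counts (126 detached, 8 attached), the level was 16.3-fold higher in detached cells. edgeR gave a log2 fold change of 4.12 (SE 0.95, unadjusted p 0.00228, adjusted p 0.198), which did not pass. DESeq2 called it higher (log2 fold change 4.20, SE 1.10, adjusted p 0.0175), as 1 of 12 higher calls, 1.26% of the 949 miRNAs given an adjusted p. edgeR without the low-count filter also called it (4.11, SE 0.92, adjusted p 0.00244), among 0.73% of 1918 miRNAs called higher. Without attached replicate 2, edgeR called it (3.68, SE 0.71, adjusted p 0.00612), among 3.24% of 679 called higher. Leaving out detached replicate 2 gave 3.10 (SE 1.27, edgeR adjusted p 0.999), with the remaining detached library assumed to vary like the attached ones. Over the 12 alternatives the fold change was positive and the adjusted p ran from 0.00244 to 0.999. The authors' deposited table gives miR-1248 a log2 fold change of 3.24 (standard error 0.95) and an adjusted p of 0.0840.

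**Figure D3:**
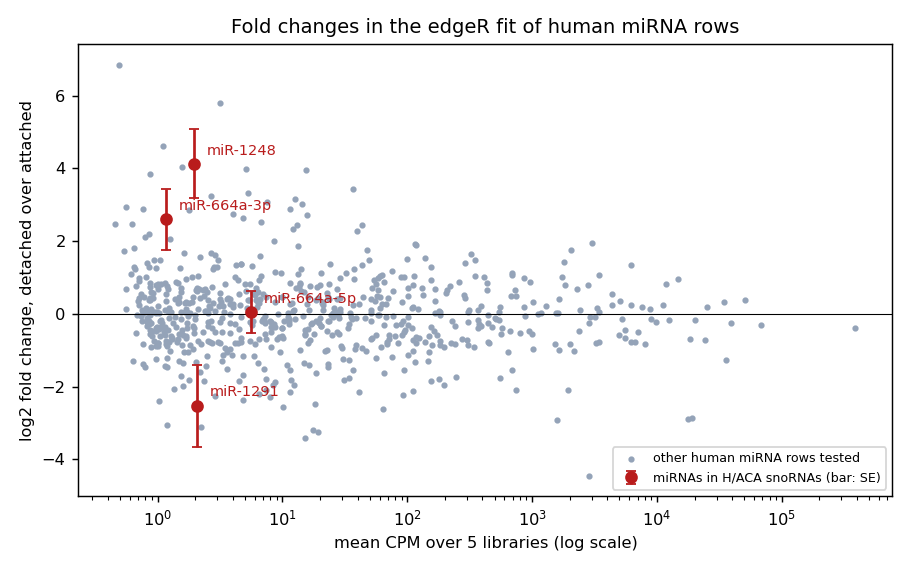
Log2 fold change, detached over attached, against mean CPM (log scale) for the 697 human miRNAs tested, with the 4 names from H/ACA snoRNAs in red and bars of 1 SE. miR-1248 lies at 4.12, miR-664a-3p at 2.59, miR-664a-5p at 0.04 and miR-1291 at -2.52.

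The arms of miR-664a, both from the 3′ part of SNORA36B, gave different values, and neither passed the test. miR-664a-5p had 98 and 68 counts in detached and 61, 40 and 62 in attached libraries. It measured 6.24 and 5.17 CPM in detached and 5.31, 6.07 and 5.27 CPM in attached libraries, so the groups overlapped fully. Its log2 fold change was 0.04 (SE 0.57, edgeR adjusted p 0.991), a value within 1 SE of 0, and its sign was negative with DESeq2 size factors (-0.031). miR-664a-3p had 23 and 43 counts in detached and 2, 1 and 9 in attached libraries. It averaged 2.37 ± 1.28 CPM in detached (SD, n = 2) and 0.364 ± 0.348 CPM in attached cells (SD, n = 3), with both detached libraries above all attached ones. Its log2 fold change was 2.59 (SE 0.84, unadjusted p 0.0143, edgeR adjusted p 0.497), and it was positive in all 12 alternatives (1.96 to 3.73, adjusted p 0.0911 to 0.999). Without attached replicate 2 it was 2.29 (SE 0.69, edgeR adjusted p 0.0911), and DESeq2 on all libraries gave an adjusted p of 0.365. The authors' deposited table gives log2 fold changes of 1.98 (standard error 0.98) for miR-664a-3p and 0.02 (standard error 0.74) for miR-664a-5p, each with an adjusted p of 0.998.

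The share of the 3p arm in all miR-664a counts does not depend on library scaling. It was 19.0% (23 of 121, exact Clopper-Pearson 95% interval 12.4% to 27.1%) in detached replicate 1 and 38.7% (43 of 111, 29.6% to 48.5%) in detached replicate 2. In attached replicates 1, 2 and 3 it was 3.17% (2 of 63, 0.387% to 11%), 2.44% (1 of 41, 0.0617% to 12.9%) and 12.7% (9 of 71, 5.96% to 22.7%). Both detached shares were above every attached share, but the interval of detached replicate 1 overlapped those of attached replicates 2 and 3. The intervals cover counting error only. Among 178 human miRNAs with both arms tested, the 3p to 5p balance was higher in both detached libraries than in all attached ones for 15.2%, so that separation by itself was common. miR-664a-3p passed the low-count filter through its detached counts, since its attached counts were 2, 1 and 9, so its place among these 178 is no support for a difference. For the paralog miR-664b the counts were too low to compare: the 3p share was 5 of 14 counts summed over detached (35.7%, 12.8% to 64.9%) and 5 of 20 over attached libraries (25%, 8.66% to 49.1%).

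**Figure D4:**
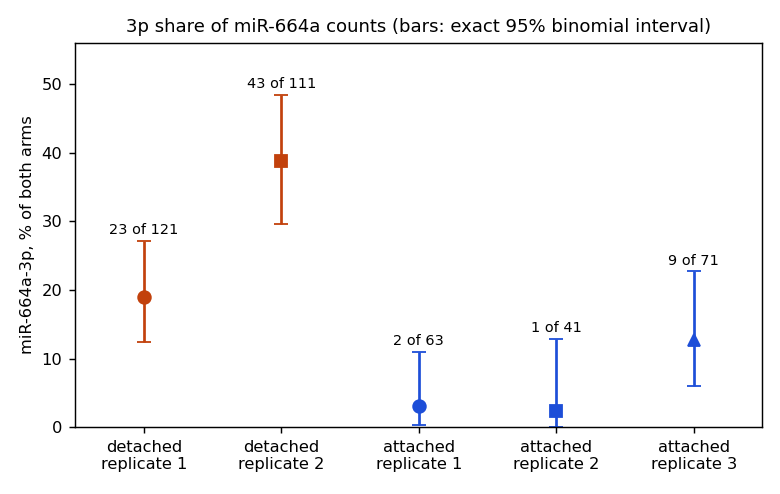
Share of miR-664a-3p in the counts of both miR-664a arms, in percent, for each library, with exact 95% binomial intervals and the counts behind them. The detached libraries lie at 19.0% and 38.7%, and the attached ones between 2.44% and 12.7%.

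miR-1291, from the 5′ end of SNORA34, had a negative fold change that did not pass the test. It had 9 and 6 counts in detached and 16, 48 and 7 in attached libraries. In CPM it measured 0.573 and 0.457 in detached and 1.39, 7.28 and 0.595 in attached libraries. Both detached libraries were below all attached ones, by a margin of less than 1 count over attached replicate 3, and attached replicate 2 was far above the rest. Its log2 fold change was -2.52 (SE 1.13, edgeR adjusted p 0.654), and it was negative in the 10 alternatives in which it could be tested (-3.08 to -1.67, adjusted p 0.345 to 0.999). Without attached replicate 1 or attached replicate 2 it failed the low-count filter. The authors' deposited table gives -1.93 (standard error 0.95, adjusted p 0.998).

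miR-664b-5p, miR-664b-3p and miR-3651 failed the low-count filter. miR-664b-5p had 7 and 2 counts in detached and 5, 3 and 7 in attached libraries. miR-664b-3p had 1 and 4 counts in detached and 2, 1 and 2 in attached libraries. miR-3651 had 2 and 2 counts in detached and 0, 0 and 1 in attached libraries, so both detached libraries lay above all attached ones in CPM. At 7 counts or fewer in every library, no difference was detectable at this depth. In the unfiltered edgeR fit their log2 fold changes were -0.65 (SE 0.94), 0.11 (SE 1.31) and 1.80 (SE 1.83) in that order, with edgeR adjusted p of 0.866, 0.997 and 0.857.

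The rows of the host snoRNAs hold the counts that the authors' counting listed under the snoRNA name. Because RNA of 18 to 24 nt was selected, counts on any snoRNA row are of short fragments and do not give levels of whole snoRNAs. How a read that matches both was assigned, or whether it was counted in both rows, is not given in the sources used here. Each share below holds only under that unknown rule, and its interval assumes that each read was counted once. For 4 of the 5 loci, most counts carried the miRNA name. SNORA36B had 2 and 5 counts in detached and 1, 11 and 7 in attached libraries, and the miR-664a arms held 97.1% (232 of 239) of locus counts in detached and 90.2% (175 of 194) in attached libraries. The SNORA81 row, whose joined name also covers SNORA8, had 0 counts in both detached libraries and 0, 0 and 1 in the attached ones, beside the 126 and 8 counts of miR-1248. SNORA34 had 2 and 1 counts in detached and 2, 0 and 0 in attached libraries, beside 15 and 71 counts of miR-1291. The joined row of SNORA36 and SNORA36A had 1 and 1 counts in detached and 1, 0 and 0 in attached libraries, and SNORA36C had 0 and 1 counts in detached libraries and 0 in each attached library. SNORA84 was the exception, with 10 and 27 counts in detached and 8, 101 and 25 in attached libraries. miR-3651 held 2 of 12 (16.7%, exact 95% interval 2.09% to 48.4%) and 2 of 29 (6.90%, 0.846% to 22.8%) locus counts in detached libraries, against 0 of 8, 0 of 101 and 1 of 26 (3.85%, 0.0973% to 19.6%) in attached replicates 1, 2 and 3. These intervals overlap, and no difference was detectable at this depth. The log2 fold change of SNORA84 was -2.06 (SE 1.25, edgeR adjusted p 0.710), and it was -0.24 (SE 0.78) without attached replicate 2.

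The summed SNORA rows, which count short fragments in these size-selected libraries, did not separate the groups. They held 2335 and 3440 counts in detached and 1088, 4825 and 2129 in attached libraries, or 146 and 317 per 1000000 named counts in detached against 88.0, 539 and 203 in attached libraries. The means were 231 ± 121 (SD, n = 2) in detached and 277 ± 235 (SD, n = 3) in attached cells. The mean log2 difference was 0.01, with a two-sided exact permutation p of 1.0, where 2 against 3 libraries cannot go below 0.1. Its sign changed with TMM-scaled library sizes (-0.24), without attached replicate 1 (-0.62), without attached replicate 3 (-0.02) and without detached replicate 2 (-0.55). It stayed positive without attached replicate 2 (0.69) and without detached replicate 1 (0.57). Attached replicates 1 and 2 lay at the lowest and the highest level, with both detached libraries between them. The joined row of SNORA73B and SNORA73, of a family that acts in ribosomal RNA processing, held 2954 of the 4825 SNORA counts of attached replicate 2. Without that row the sums were 119 and 248 per 1000000 named counts in detached and 76.3, 209 and 128 in attached libraries, and the mean log2 difference was 0.44.

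**Figure D5:**
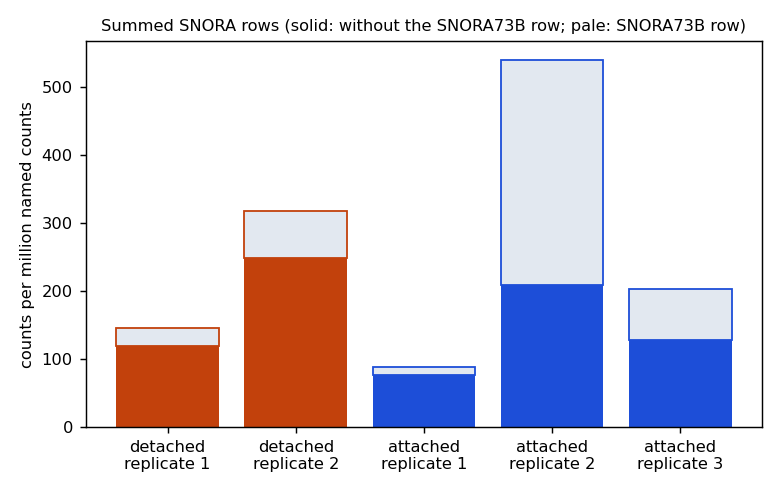
Summed counts of the 107 SNORA rows per 1000000 named counts in each library, with the SNORA73B row in pale and all other rows in solid colour. Attached replicates 1 and 2 are the lowest and highest of the 5 libraries (88.0 and 539), and the detached libraries (146 and 317) fall between them.

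In an edgeR fit over all named rows, 25 of the 107 SNORA rows passed the filter and 0 were called in either direction, beside 0.0% called higher and 0.0% called lower of 1159 rows. DESeq2 also called 0 SNORA rows. At unadjusted p under 0.05, 0 SNORA rows were higher and 1 lower, against 6.64% and 2.16% of all 1159. These 2 counts moved with the setting, to 3 higher and 6 lower of 88 without the low-count filter. They were 0 and 3 of 24 without attached replicate 1, and 1 and 0 of 22 without attached replicate 2. The shares of all named rows in these settings are not given here, so the moved counts are not compared with a background. The 1 lower row in the fit of all libraries was SNORA7A, with 1 and 3 counts in detached and 4, 11 and 30 in attached libraries (-3.37 on the log2 scale with an SE of 1.13, edgeR adjusted p 0.421). The median log2 fold change of the 25 rows was -0.10, with 12 above 0. The 5 most abundant SNORA rows were SNORA73B, SNORA73A, SNORA74A, SNORA2B and the joined row of SNORA14B and SNORA14. Their log2 fold changes, in that order, were -1.96 (SE 1.29), -0.10 (SE 0.96), -0.26 (SE 0.74), 0.74 (SE 0.65) and -0.36 (SE 0.68). Without attached replicate 2 the SNORA73B value was -0.09 (SE 0.83).

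SnoRNAs from introns of the same host genes were set beside the miRNA names. In EIF4A2, the host of miR-1248, the joined row of SNORA43 and SNORA4 had 91 and 153 counts in detached and 46, 16 and 33 in attached libraries. Both detached libraries were above all attached ones, but the log2 fold change of 1.44 (SE 0.66) had an edgeR adjusted p of 0.583, and the counts of SNORA4 cannot be parted from those of SNORA43. SNORA63 of the same gene had 8 and 3 counts in detached and 3, 2 and 1 in attached libraries, and the joined row of SNORD2 and SNORD28 had 1 and 0 in detached and 0, 1 and 0 in attached libraries. In KANSL2, the host of miR-1291, SNORA2B had 457 and 237 counts in detached and 134, 133 and 143 in attached libraries (edgeR adjusted p 0.839). The SNORA2B groups did not overlap per 1000000 named counts, with both detached libraries above all attached ones. The same held for SNORA63 in EIF4A2, at 8 counts or fewer in every library. These levels are not TMM-scaled. Divided by the TMM factors of the miRNA fit (0.748 in attached replicate 2, 1.25 in detached replicate 2), the groups overlap for both rows. The share of all named rows or SNORA rows that separate in this way was not computed. Among the 697 tested miRNAs it was 14.9% on TMM-scaled CPM, so such separation by itself was common there. SNORA2A in KANSL2 varied within both groups, with 2 and 60 counts in detached and 49, 1 and 0 in attached libraries. SNORA56 in DKC1, the host of miR-664b, had 24 and 10 counts in detached and 10, 34 and 13 in attached libraries (-0.89 on the log2 scale with an SE of 0.92, edgeR adjusted p 0.873, and 0.15 without attached replicate 2).

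The arms of miR-3607 and miR-3653 were set beside the 7 as names known, from background knowledge, to lie in C/D box snoRNAs, the class that guides 2′-O-methylation. Their sequences were not searched here, so these hosts were not checked. miR-3653-5p, at a level near that of miR-664a-5p, had 7.32 and 7.38 CPM in detached and 4.88, 7.59 and 5.44 CPM in attached libraries. The difference was 0.30 on the log2 scale with an SE of 0.58 (edgeR adjusted p 0.906). miR-3607-3p gave -0.19 (SE 0.88, edgeR adjusted p 0.973). miR-3607-5p, which failed the filter, had 10 and 9 counts in detached and 1, 1 and 2 in attached libraries, and miR-3653-3p 4 and 5 in detached and 3, 5 and 1 in attached libraries. Both detached libraries lay above all attached ones in CPM for miR-3607-5p, as for 14.9% of 697 tested miRNAs. The unfiltered edgeR fit gave log2 fold changes of 2.24 (SE 1.02, adjusted p 0.565) for miR-3607-5p and 0.004 (SE 0.77, adjusted p 0.998) for miR-3653-3p. Of the 4 names 2 were tested and 0 called by edgeR. The Cajal body names miR-6516-5p and miR-6516-3p, whose box type was not checked, were as scarce as the 7. miR-6516-5p had 21 and 10 counts in detached and 9, 0 and 8 in attached libraries. miR-6516-3p had 2 and 4 in detached and 2, 1 and 4 in attached libraries.

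The tested miRNAs most like a name across the 5 libraries were found by the root mean square difference of centred log2(CPM + 0.5), where 0 means the same profile. miR-664a-5p was closest to miR-651-5p (0.05) and miR-501-5p (0.11), which also varied little between libraries. miR-1291 was closest to miR-125b-2-3p (0.24) and miR-30c-2-3p (0.28), and both had their highest level in attached replicate 2 (30.2 and 61.3 CPM). miR-1248 was closest to miR-6751-3p (0.29), with 1.72 and 3.58 CPM in detached and 0.174, 0 and 0.0850 CPM in attached libraries, and to miR-663b (0.42). Libraries and depth are shared by all these profiles, and likeness over 5 libraries is a description only.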

How the data were processed

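The deposited files hold raw counts per named small RNA, not normalized, in 1 table per library, with 49965 named rows, and 5 unnamed-read rows that hold 0 counts and were left out. The authors' comparison table holds, per the file header, log2 fold changes, their standard errors and p-values. Its 5 columns of per-library values were not used. Per the submitters' processing notes the build is hg38 and DESeq2 was used. The sources used here name no aligner or counter.

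Counts of 2565 human miRNA rows entered edgeR 4.0.16 under R 4.3.3 (TMM, quasi-likelihood F test, two-sided, all 5 libraries, no covariate), after filterByExpr (minimum count 10, minimum total 15), which kept 697 rows. SNORA rows were tested in a second fit over all named rows, which kept 1159. Calls are Benjamini-Hochberg adjusted p under 0.05, and SEs are the absolute log2 fold change over the square root of F. Both fits were also run on simulated data with a smaller spread between libraries and no deviant library. That run does not show how well the fits detect changes in these data. Alternatives used DESeq2 1.42.0, limma-voom 3.58.1, other scalings and filters, a replicate block and each library left out. The members and lists were chosen with earlier results of these data known. Named were all members, host and same-host snoRNAs, C/D box names, the 5 most abundant SNORA rows, any called row, and 2 neighbours each of the 3 most abundant members. The miR-6516 arms, SNORA7A and the arm balance were added after values were seen. Counts of replicates in a group differed by more than sampling noise, with a chi-square statistic of 729 to 4220 for each degree of freedom.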

Additional observations from a re-analysis of the deposited data

How the results depend on the processing

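The number of names called higher was 1 (miR-1248) with DESeq2 and without the low-count filter, and 0 to 1 when each library was left out, against 0 otherwise. The number called lower, and the SNORA rows called in either direction, were 0 in every setting run. The stricter filter of 50 CPM in 2 libraries left no name to test. The summed level of the 7 names differed by a log2 value of 0.76, by 0.50 with TMM-scaled library sizes and by 1.24 without miR-664a-5p. With each library left out it differed by 0.32 to 1.20. The summed SNORA level differed by 0.01, by -0.24 with TMM-scaled library sizes, and by -0.62 to 0.69 with each library left out. The log2 fold change of hsa-miR-664a-5p changed sign with DESeq2 size factors (-0.031) and ran from -0.045 to 0.24 with each library left out. That of SNORA2A changed sign with the replicate block (-0.29) and ran from -3.42 (without detached replicate 2) to 1.45 with each library left out. That of SNORA56 ran from -1.59 to 0.15 (without attached replicate 2). The cause of these changes was not tested. Library totals without TMM moved the median of all miRNAs to 0.20, against -0.04, and that of all named rows to 0.30, against 0.04.

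With the replicate block, miR-1248 gave 4.23 (edgeR adjusted p 0.617) and 0 names were called. Deviations of same-numbered libraries had correlations of -0.23 and -0.21, but with 2 detached libraries these values cannot decide whether libraries were paired. The labels do not say that a number pairs libraries, so the block was not used in the results above. Depth limits miR-664b and miR-3651, with at most 7 counts in any library.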
